A study of Rattus norvegicus with 12 samples.

Results

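The genes that build the RT1 complex, the major histocompatibility complex of the rat, were examined in the left atrium together with genes that load and present peptides. Members were all genes with counts whose symbol begins with RT1-, plus B2m, Tap1, Tap2, Tapbp, Psmb8, Psmb9, Psmb10, Cd74, Ciita and Nlrc5. This gave 48 members out of 21239 genes with counts, made up of 28 RT1 class I genes, 10 RT1 class II genes (symbols beginning RT1-B, RT1-D or RT1-H) and 10 genes outside the RT1 names. The symbols RT1-T24-2 and RT1-CE6 also fitted but had no counts, and RT1-M1-4, RT1-M1-5 and RT1-M5 had no read in any library. RNA-seq had been run on 12 rats in 4 groups of 3: normotensive Wistar-Kyoto (WKY) rats and spontaneously hypertensive rats (SHRs) given saline at 7.5 ml/kg/day, SHRs given valsartan, an angiotensin receptor blocker, at 30 mg/kg/day (ARB group), and SHRs given sacubitril/valsartan, an angiotensin receptor and neprilysin inhibitor, at 60 mg/kg/day (ARNI group). Rats were bought at an age of 14 weeks, and treatment lasted 4 weeks. SHRs are an inbred model of high blood pressure, so strain and blood pressure cannot be told apart in a comparison with WKY rats.

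Class I molecules sit on nearly all nucleated cells and show peptides from inside the cell to CD8 T cells and natural killer cells. Their heavy chain pairs with beta-2 microglobulin (B2m), and its peptides are cut by the immunoproteasome (Psmb8, Psmb9, Psmb10), pumped by Tap1 and Tap2 and loaded with the help of tapasin (Tapbp). Class II molecules are pairs of an alpha and a beta chain, found mainly on macrophages, dendritic cells and B cells, and show peptides from taken-up material to CD4 T cells. The invariant chain Cd74 guards their groove, the DM pair exchanges its peptide, the DO pair restrains DM, and Ciita and Nlrc5 switch on class II and class I genes, respectively. RT1 genes are among the most variable between rat strains.

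Some libraries went against their labels. For the 6 libraries of WKY and saline-treated SHRs the strain in the title contradicted the library name, and they were grouped by library name, while in the ARB and ARNI labels a WKY strain stands with a phenotype of SHR, and these rats were taken as SHRs, as the study describes them. Library totals ranged from 11252361 to 15823525 counts. The summed level of 6 atrial markers was 52.4 to 280.3 counts per 1000000 counts of the library (CPM) in the 3 WKY libraries and 74.2 CPM in ARNI library 2, against 27693 to 77097 CPM in the other 8. The sum of 5 ventricular markers was 43272 to 43595 CPM in WKY, 18563 CPM in ARNI library 2, 10624 CPM in ARB library 3, 9833 CPM in SHR library 2 and 371.3 to 935.2 CPM in the other 6. Defining atrial markers such as Sln, Mybphl and Bmp10 were thus at or near 0 in WKY, and strain and chamber markers cannot be told apart between WKY and SHR. ARNI library 2, from an SHR but without atrial markers, is therefore given beside the results below.

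The promoters of the 4 chains of the classical class II molecules are shown first. Promoter sequences came from RefSeq on build GRCr8, which held one for 9 of the 10 class II members, 24 of the 28 class I members and 8 of the 10 others. The letters CCAAT, the core of the Y box, and GAAANNGAA, an interferon response core, were searched on both strands, in 250 bases before and 50 after the start. CCAAT occurred in 9 of 9 class II promoters and in 16 of 24 class I promoters, against 37.5% of 33469 promoters of all genes. GAAANNGAA occurred in 6 of the 8 promoters outside the RT1 names (B2m, Tap1, Tap2, Tapbp, Psmb8 and Psmb10), in 0 of 9 class II and in 3 of 24 class I promoters, against 9.71% of all promoters. Only this order of letters was counted. The stretch tttcacttc, gaagtgaaa on the opposite strand, is no match and stays unmarked, as in RT1-A1 below. It also stands in RT1-A2, RT1-CE3, RT1-CE5, RT1-CE10 and RT1-CE13, so a promoter without a match can hold similar letters. In the following 250 bases before each start, 5′ to 3′ along the gene, capitals mark a match on either strand (ATTGG is CCAAT on the opposite strand).
RT1-Ba (chr20:4576807-4577056, plus strand): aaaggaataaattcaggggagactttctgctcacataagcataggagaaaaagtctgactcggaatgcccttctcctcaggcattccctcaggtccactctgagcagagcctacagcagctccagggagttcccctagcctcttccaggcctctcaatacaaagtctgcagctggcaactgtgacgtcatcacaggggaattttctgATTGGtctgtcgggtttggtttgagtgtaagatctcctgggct
RT1-Bb (chr20:4604119-4604368, minus strand): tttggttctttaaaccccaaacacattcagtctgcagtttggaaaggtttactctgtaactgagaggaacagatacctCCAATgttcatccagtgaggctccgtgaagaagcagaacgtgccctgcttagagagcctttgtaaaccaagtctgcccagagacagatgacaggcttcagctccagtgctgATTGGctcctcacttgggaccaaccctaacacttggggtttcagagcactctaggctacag
RT1-Da (chr20:4515165-4515414, plus strand): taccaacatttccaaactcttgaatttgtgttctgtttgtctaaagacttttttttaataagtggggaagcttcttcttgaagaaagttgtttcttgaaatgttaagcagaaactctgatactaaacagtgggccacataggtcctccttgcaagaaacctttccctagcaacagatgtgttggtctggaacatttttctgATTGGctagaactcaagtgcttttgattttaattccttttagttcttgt
RT1-Db1 (chr20:4560163-4560412, minus strand): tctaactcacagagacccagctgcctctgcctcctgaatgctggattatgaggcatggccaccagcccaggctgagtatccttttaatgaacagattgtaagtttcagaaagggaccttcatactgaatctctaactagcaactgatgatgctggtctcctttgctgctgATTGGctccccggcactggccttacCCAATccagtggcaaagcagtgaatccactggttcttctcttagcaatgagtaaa
In RT1-Ba, RT1-Bb, RT1-Da and RT1-Db1 the match on the opposite strand began 43, 61, 49 and 80 bases before the start, respectively. For comparison, the promoter of RT1-A1, the class I gene with the most reads in SHRs, held CCAAT on both strands, and that of Psmb10 held 3 interferon response cores, of which the first and second overlapped.
RT1-A1 (chr20:4906959-4907208, plus strand): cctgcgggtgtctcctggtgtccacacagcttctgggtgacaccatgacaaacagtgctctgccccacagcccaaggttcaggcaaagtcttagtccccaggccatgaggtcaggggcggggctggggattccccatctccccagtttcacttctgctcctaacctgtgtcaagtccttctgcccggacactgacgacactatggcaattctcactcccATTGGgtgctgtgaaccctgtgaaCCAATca
Psmb10 (chr19:50743293-50743542, minus strand): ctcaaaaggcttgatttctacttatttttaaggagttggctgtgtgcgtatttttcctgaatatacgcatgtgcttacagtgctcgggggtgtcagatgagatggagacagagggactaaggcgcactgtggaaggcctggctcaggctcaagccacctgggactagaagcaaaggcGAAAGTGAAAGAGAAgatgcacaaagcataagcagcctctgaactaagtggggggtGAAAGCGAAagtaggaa
These matches are descriptions of the reference letters, and no binding was measured.

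The summed class I level of saline-treated SHRs ranged around that of WKY rats, but in SHRs the reads fell on the class I genes in other proportions. The 28 class I members together reached 1090, 996.0 and 1008 CPM in WKY and 1014, 772.6 and 1328 CPM in saline-treated SHRs. Under treatment the sums were 1036, 992.0 and 1214 CPM in the ARB group and 814.2, 830.9 and 861.3 CPM in the ARNI group. The saline-treated SHR libraries lay on both sides of all WKY libraries, and all ARNI libraries were below them. The share of these reads on RT1-A1 was 10.3%, 10.3% and 11.4% in the WKY libraries and 35.3% to 41.2% in all 9 libraries of SHRs. Conversely, RT1-A2 held 17.2% to 18.6% in WKY and 11.1% to 13.0% in SHRs, RT1-CE10 held 8.27% to 9.40% and 2.64% to 3.31%, and RT1-N2 held 2.38% to 2.89% and 0.237% to 0.531%. These 4 shares did not overlap between WKY and SHRs. ARNI library 2 had the lowest RT1-A1 share of the SHRs (35.3%).

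**Figure D1:**
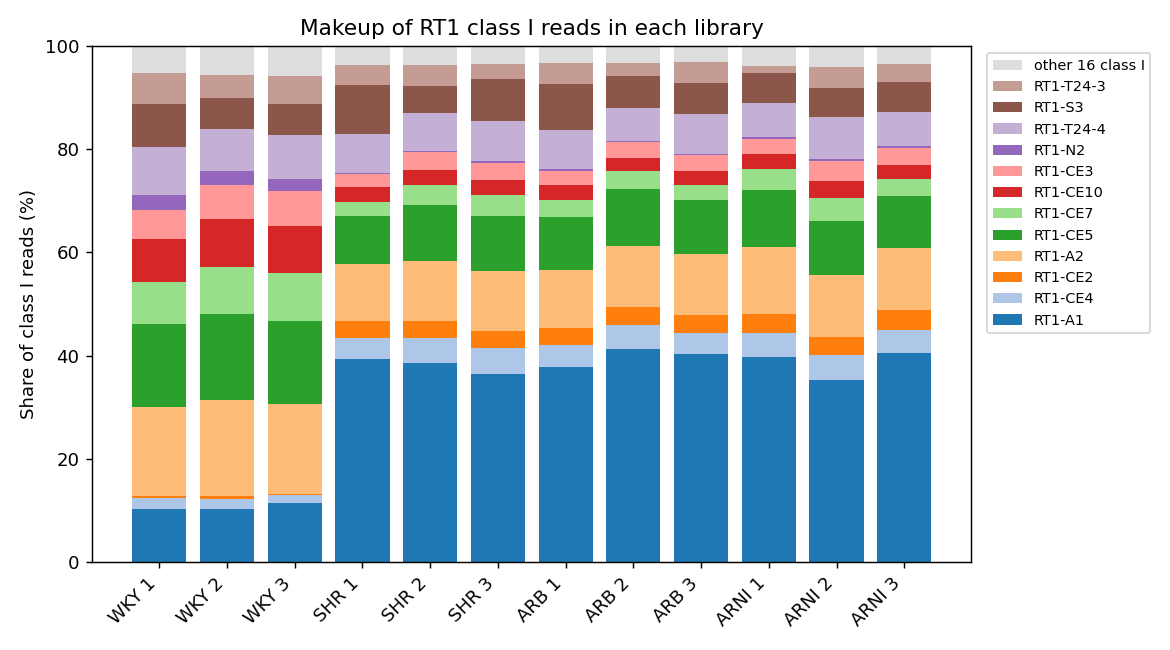
Share of class I reads in percent (vertical axis) for 12 class I genes and the other 16 together, stacked in each of the 12 libraries (horizontal axis). The RT1-A1 band at the bottom is 10.3% to 11.4% in the 3 WKY bars and 35.3% to 41.2% in the 9 bars of SHRs.

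Class I genes are close copies of each other, and the counts of a gene are in part shared out between copies. Of the class I values above 0, 94.5% (258 of 273) were not whole numbers (more than 0.005 from one), against 29.9% over all genes and 39.7% (46 of 116) for class II. Reads that fit several genes had been divided among them by estimation, so a class I gene's value can hold reads of a relative. The sum over class I does not depend on how reads were divided within the class. RT1-CE4, RT1-CE5 and RT1-CE7 also overlap each other in the GRCr8 annotation, as do RT1-T24-3 with RT1-T24-4 and RT1-O1 with RT1-S2. How far the reads of a WKY or SHR allele fit the reference sequence was not tested.

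Between saline-treated SHRs and WKY rats, 18 of the 38 members tested were DEGs (adjusted p of at most 0.05 by edgeR, and a log2 fold change of at least 1 either way), with 3 upregulated and 15 downregulated. Over all 13794 genes tested, 8.89% were DEGs, 5.54% upregulated and 3.35% downregulated (764 and 462 genes, or 985 and 363 with no scaling beyond the library total, which moved the median of all genes to 0.15). The median log2 fold change of the members was -0.66, and that of all genes was 0.01. By class, 10 of 20 class I members, 6 of 8 class II members and 2 of the other 10 were DEGs. Without WKY library 1, 2 or 3 the DEGs numbered 10, 9 and 10, beside 393, 353 and 348 of all genes. In 24 of the 38 members the 3 SHR and the 3 WKY libraries did not overlap (5 all above, 19 all below), as in 49.6% of all genes tested. The 10 members that the filter on low counts removed were the class I genes RT1-M10-1, RT1-M2, RT1-M6-1, RT1-T18, RT1-M4 and the 3 without reads, and the class II genes RT1-DOb and RT1-Ha.

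All 9 libraries of SHRs, treated or not, were also compared with the 3 WKY libraries in a fit of the 12 libraries. Here 13 of 39 members were called, 3 upregulated and 10 downregulated, and all 13 were among the 18 above. Over all 14452 genes, 7.01% were called, 4.23% upregulated and 2.77% downregulated. The groups did not overlap in 16 of the 39 members and in 16.4% of all genes tested. Both comparisons use the same WKY and saline-treated SHR libraries. All 10 class I DEGs were called in both, while RT1-Da, RT1-DMa, RT1-DMb, Cd74 and Ciita were called only with the saline-treated SHRs alone, and no test of that contrast between the comparisons was made.

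**Figure D2:**
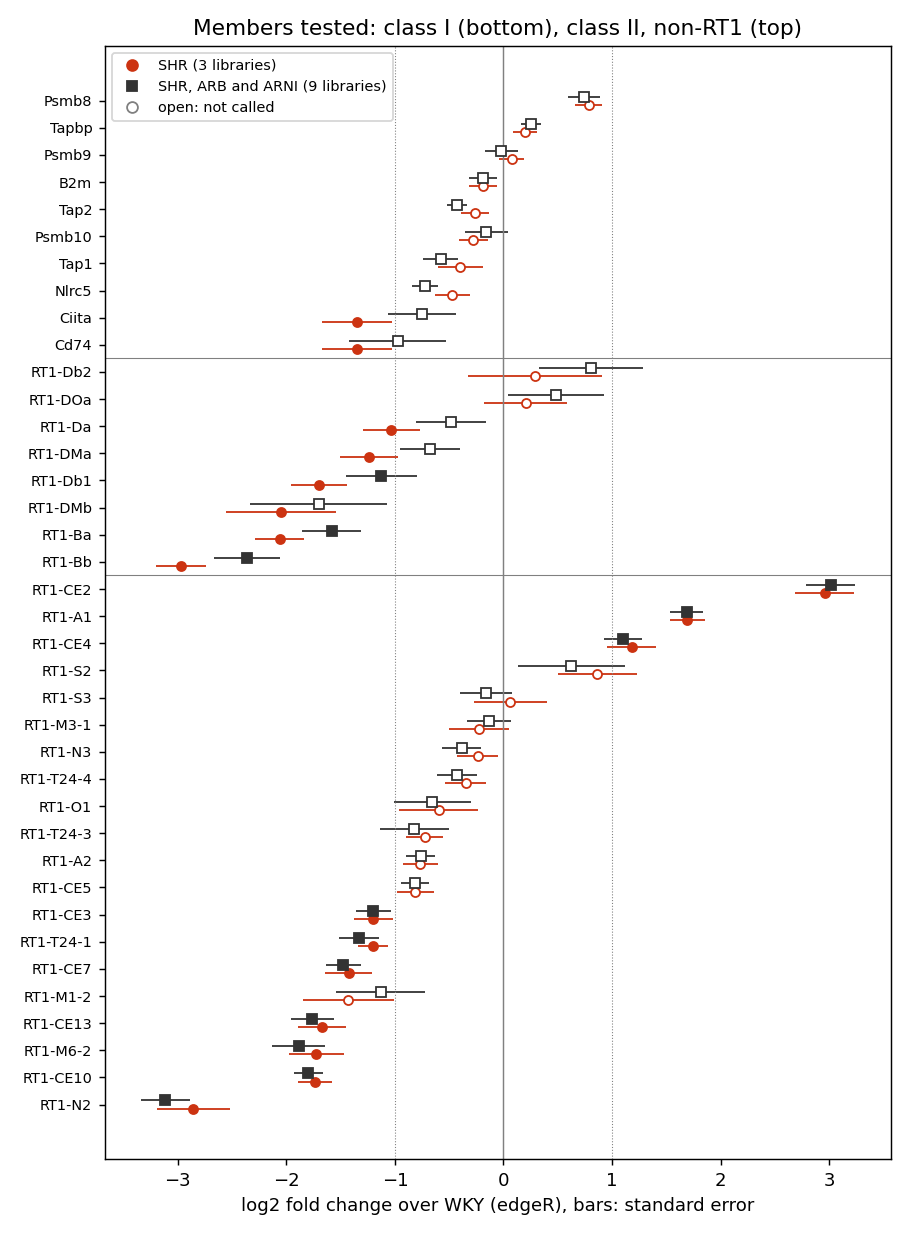
Log2 fold change over WKY with its standard error (horizontal axis) for the 38 members tested in SHR against WKY (circles) and the same members for 9 libraries of SHRs against WKY (squares), filled where called, with class I at the bottom, class II in the middle and the other members at the top. The circles of class I spread from -2.86 (RT1-N2) to 2.96 (RT1-CE2), while the 6 called class II circles are all below 0.

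RT1-A1, a classical class I heavy chain, reached 112.3, 102.5 and 114.9 CPM in WKY, 399.5, 298.5 and 484.3 CPM in SHR, 391.8, 408.7 and 489.6 CPM in ARB and 323.8, 293.6 and 349.4 CPM in ARNI. Every library of SHRs was above every WKY library, ARNI library 2 included. Its log2 fold change was 1.70 ± 0.16 (SE, adjusted p = 0.00317) in SHR and 1.69 ± 0.15 (adjusted p = 0.000235) over the 9 libraries. RT1-CE2, a gene of the non-classical RT1-C/E region, was at 4.54, 4.49 and 2.61 CPM in WKY, 31.9, 24.5 and 44.0 CPM in SHR, 35.2, 34.8 and 41.7 CPM in ARB and 29.5, 28.5 and 33.3 CPM in ARNI. The groups were far apart, and the log2 fold change was 2.96 ± 0.27 in SHR (adjusted p = 0.00316). RT1-CE4, of the same region, went from 15.7 to 22.8 CPM in WKY to 37.1 to 67.3 CPM in the 9 libraries of SHRs, a log2 fold change of 1.18 ± 0.22 in SHR (adjusted p = 0.0186), which was not called without SHR library 3 or any WKY library.

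RT1-N2, another non-classical class I gene, was at 31.5, 28.1 and 23.9 CPM in WKY, 2.88, 2.80 and 7.06 CPM in SHR, 3.52, 2.83 and 2.88 CPM in ARB and 3.68, 3.26 and 2.45 CPM in ARNI. All 9 libraries of SHRs were below the lowest WKY library, and the log2 fold change was -2.86 ± 0.34 in SHR (adjusted p = 0.00558) and -3.12 ± 0.23 over the 9 libraries (adjusted p = 9.35e-05). RT1-CE10 was at 90.1, 93.7 and 91.1 CPM in WKY, 29.5, 22.7 and 39.0 CPM in SHR, 30.0, 26.2 and 32.3 CPM in ARB and 24.0, 27.5 and 23.6 CPM in ARNI. Its log2 fold change was -1.74 ± 0.16 in SHR (adjusted p = 0.00316), again without overlap. The other 5 downregulated class I genes were RT1-CE7 (88.3 to 94.8 CPM in WKY, 28.7 to 53.7 CPM in SHRs), RT1-CE3 (62.8 to 67.8 and 22.9 to 42.6 CPM), RT1-T24-1 (13.1 to 14.4 and 4.32 to 7.68 CPM), RT1-CE13 (10.9 to 14.4 and 2.90 to 5.74 CPM) and RT1-M6-2 (3.69 to 4.27 and 0.845 to 1.83 CPM). Their log2 fold changes in SHR lay between -1.72 (RT1-M6-2) and -1.20 (RT1-CE3), and none of the 5 overlapped between WKY and the 9 libraries. The calls of RT1-CE3 and RT1-CE7 ended without WKY library 2 or 3, and that of RT1-M6-2 without WKY library 1 or 2.

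**Figure D3:**
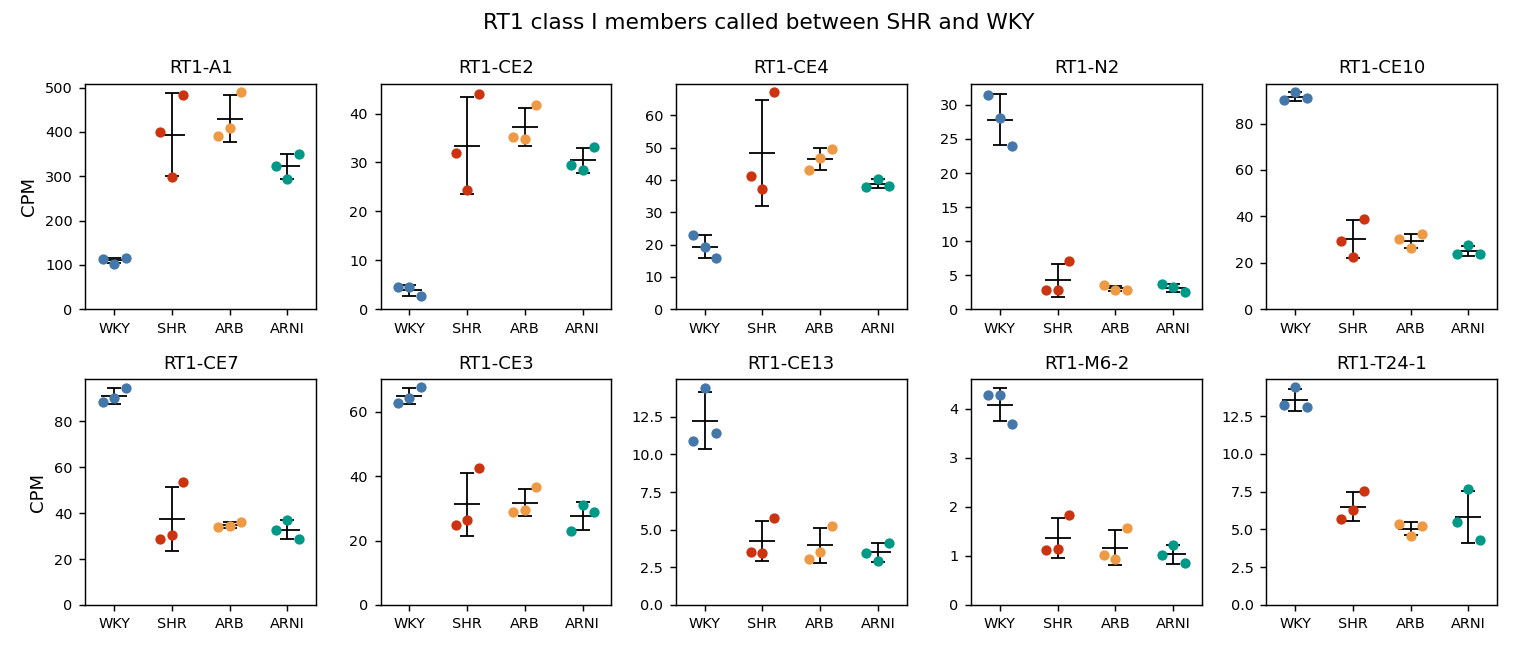
Level in CPM (vertical axes, each from 0) of the 10 class I DEGs in the 4 groups (horizontal axes), with a point per library, the mean as a bar and the SD over 3 libraries as whiskers. In the panels of RT1-A1, RT1-CE2 and RT1-CE4 the 9 points of SHRs are above those of WKY, and in the other 7 panels they are below.

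The remaining class I genes with many reads were no DEGs. RT1-A2, the other classical heavy chain, was at 175.3 to 187.0 CPM in WKY and 90.2 to 154.1 CPM in the 9 libraries of SHRs, and RT1-CE5 was at 161.3 to 175.8 and 83.6 to 140.8 CPM. Neither overlapped, and their log2 fold changes in SHR were -0.77 ± 0.16 (adjusted p = 0.0239) and -0.81 ± 0.17 (adjusted p = 0.0223), short of the threshold on fold change. RT1-T24-3 was also past the adjusted p alone (-0.72 ± 0.17, adjusted p = 0.0316), at 42.8 to 66.2 CPM in WKY and 30.7 to 39.2 CPM in SHR. The levels of RT1-T24-4 (81.4 to 102.0 CPM in WKY, 56.0 to 102.8 CPM in SHR) and RT1-S3 (59.7 to 89.2 and 40.6 to 106.8 CPM) overlapped between both groups and did not pass the test. The other class I members tested, RT1-N3, RT1-M3-1, RT1-S2, RT1-O1 and RT1-M1-2, had adjusted p-values from 0.0535 (RT1-M1-2) to 0.573 (RT1-M3-1). RT1-M2, removed by the filter on low counts, was at 0.551, 0.630 and 0.586 CPM in WKY and between 0 and 0.117 CPM in the 9 libraries of SHRs, where 3 reads amount to 0.190 to 0.238 CPM. With no filter on low counts it was tested and called in SHR (adjusted p = 0.0474) and over the 9 libraries (adjusted p = 0.0155), as it was by DESeq2 (adjusted p = 0.0406 and 0.00227). The other untested class I genes stayed at or below 0.678 CPM in every library.

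Class II levels were lower in saline-treated SHRs than in WKY rats. The 10 class II members summed to 216.4, 282.3 and 163.2 CPM in WKY, 62.1, 72.4 and 67.9 CPM in SHR, 68.8, 93.3 and 171.7 CPM in ARB and 53.2, 118.8 and 146.0 CPM in ARNI. The WKY and SHR libraries did not overlap, whereas the highest ARB library reached the WKY range. RT1-DMb alone held 24.5% to 31.2% of the class II sum in WKY and 9.03% to 41.0% in the 9 libraries of SHRs. SHR library 2 had the highest class II sum of its group but the lowest sum of RT1-Ba, RT1-Bb, RT1-Da and RT1-Db1 (39.9 CPM). Set against the class I sum of the same library, class II amounted to 16.2% to 28.3% in WKY, 5.12% to 9.37% in SHR, 6.64% to 14.1% in ARB and 6.54% to 16.9% in ARNI. In whole tissue, fewer cells that carry class II and less class II RNA per cell cannot be told apart. Strain and chamber markers cannot be told apart here either. How far reads of WKY and SHR class II alleles fit the reference sequence was not tested.

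Both RT1-B chains were downregulated in both comparisons with WKY. RT1-Bb, the RT1-B beta chain, was at 44.3, 63.4 and 36.3 CPM in WKY, 6.42, 5.52 and 8.26 CPM in SHR, 7.27, 11.3 and 19.0 CPM in ARB and 6.64, 10.7 and 18.0 CPM in ARNI. No library of SHRs reached the lowest WKY library, and the log2 fold change was -2.97 ± 0.23 in SHR (adjusted p = 0.00205) and -2.36 ± 0.30 over the 9 libraries (adjusted p = 0.00202). RT1-Ba, the alpha chain, was at 38.4, 51.0 and 27.2 CPM in WKY, 11.0, 9.70 and 9.82 CPM in SHR, 12.2, 15.3 and 23.8 CPM in ARB and 9.73, 12.2 and 23.9 CPM in ARNI. It did not overlap either, with -2.06 ± 0.23 in SHR (adjusted p = 0.00471). The ratio of beta to alpha CPM was 1.15 to 1.34 in the WKY libraries and 0.569 to 0.877 in all 9 libraries of SHRs, without overlap, and ARNI library 2 (0.877) was the highest of the SHRs.

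The RT1-D pair was downregulated in saline-treated SHRs as well. RT1-Db1, its beta chain, was at 27.2, 35.8 and 17.3 CPM in WKY, 9.84, 8.30 and 8.94 CPM in SHR, 12.2, 14.1 and 25.0 CPM in ARB and 7.70, 11.6 and 24.5 CPM in ARNI. Saline-treated SHRs were all below WKY (-1.70 ± 0.26, adjusted p = 0.0103), while ARB library 3 and ARNI library 3 lay within the WKY range. RT1-Da, the alpha chain, was at 35.4, 53.8 and 26.0 CPM in WKY, 22.9, 16.4 and 22.5 CPM in SHR, 24.7, 31.7 and 53.7 CPM in ARB and 18.4, 30.2 and 51.0 CPM in ARNI. Its log2 fold change was -1.04 ± 0.26 in SHR (adjusted p = 0.0379), and over the 9 libraries it was -0.48 ± 0.32 (adjusted p = 0.294), since 4 of the treated libraries lay in the WKY range. Without any 1 of the 6 libraries RT1-Da was no longer called in SHR against WKY, nor was it with no scaling or in a single fit of 12 libraries, and RT1-Db1 was not without WKY library 1.

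**Figure D4:**
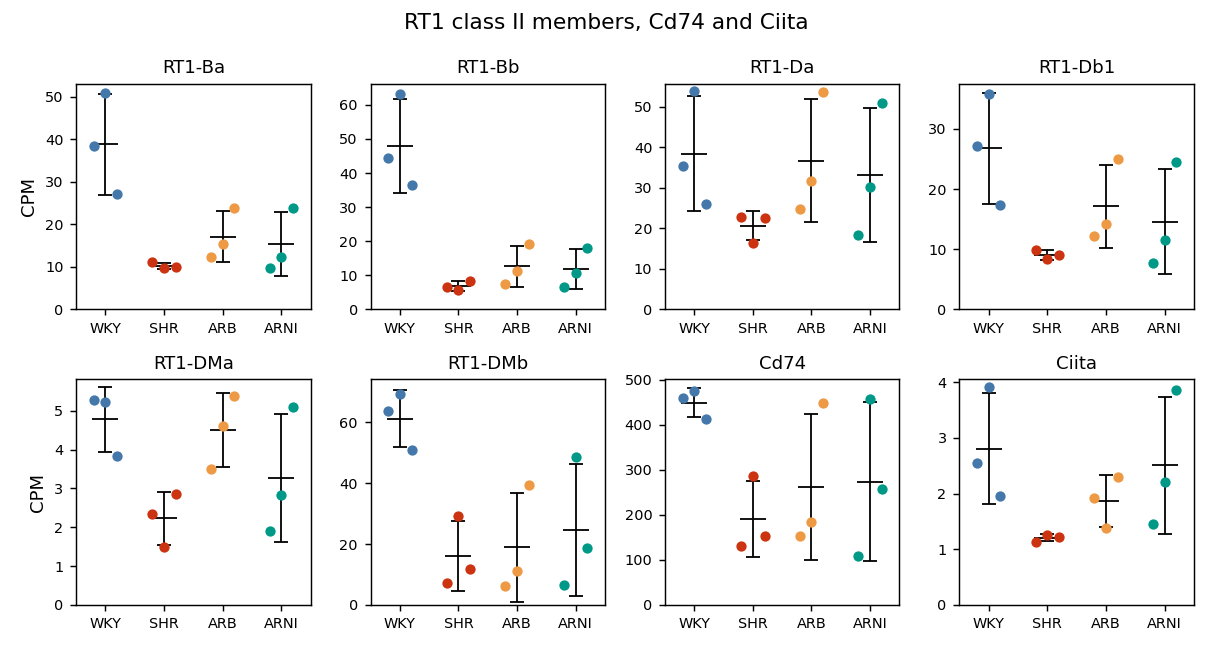
Level in CPM (vertical axes, each from 0) of 6 class II genes, Cd74 and Ciita in the 4 groups (horizontal axes), with a point per library, the mean as a bar and the SD over 3 libraries as whiskers. The SHR points of RT1-Ba, RT1-Bb and RT1-Db1 are close together and below WKY, while ARB and ARNI spread upward from them.

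RT1-DMb and Cd74 followed another order across libraries than the RT1-B and RT1-D chains. RT1-DMb was at 63.6, 69.3 and 50.9 CPM in WKY, 7.16, 29.2 and 11.9 CPM in SHR, 6.22, 11.2 and 39.4 CPM in ARB and 6.38, 48.7 and 18.8 CPM in ARNI. Within each group of SHRs the highest library was the one with ventricular markers, namely SHR library 2, ARB library 3 and ARNI library 2. ARB library 3 was also the highest of its group for RT1-Ba, RT1-Bb, RT1-Da, RT1-Db1 and RT1-DMa. How many of all genes had these libraries as the highest of each group was not counted. RT1-DMa, its partner, was at 5.29, 5.22 and 3.82 CPM in WKY, 2.34, 1.498 and 2.84 CPM in SHR, 3.51, 4.61 and 5.39 CPM in ARB and 1.90, 2.83 and 5.09 CPM in ARNI, and its lowest library was SHR library 2. The ratio of RT1-DMb to RT1-DMa CPM was therefore 12.0 to 13.3 in WKY, 19.5 in SHR library 2, 17.2 in ARNI library 2, 7.30 in ARB library 3 and 1.77 to 4.17 in the other 6. Those 6 are the libraries with ventricular marker sums of 371.3 to 935.2 CPM. The highest ratios rest on few RT1-DMa reads, 19 in SHR library 2 and 36 in ARNI library 2.

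Cd74 was at 458.9, 475.2 and 413.0 CPM in WKY, 131.7, 286.8 and 153.8 CPM in SHR, 152.8, 184.1 and 447.3 CPM in ARB and 107.4, 457.4 and 256.4 CPM in ARNI. Again SHR library 2, ARB library 3 and ARNI library 2 were the highest of their groups. Per summed CPM of RT1-Ba, RT1-Bb, RT1-Da and RT1-Db1, Cd74 stood at 7.19 in SHR library 2 and 7.08 in ARNI library 2, and at 2.18 to 3.87 in the other 10, ARB library 3 (3.68) and WKY (2.33 to 3.87) included. In SHR against WKY these genes were called, with -2.05 ± 0.51 (adjusted p = 0.0357) for RT1-DMb, -1.35 ± 0.32 (adjusted p = 0.033) for Cd74 and -1.24 ± 0.27 (adjusted p = 0.0252) for RT1-DMa. Leaving out SHR library 1 or any WKY library ended these 3 calls, and leaving out SHR library 3 ended those of RT1-DMb and Cd74. A single fit of the 12 libraries called none of these 3. Over the 9 libraries RT1-DMb (-1.70 ± 0.63, adjusted p = 0.0797) and Cd74 (-0.97 ± 0.45, adjusted p = 0.139) were not called, but both were called without ARNI library 2 alone. RT1-DMb was also called without SHR library 2 or ARB library 3 alone, and by DESeq2. Leaving out these 3 libraries together, a selection made after the values were seen, called both and gave 16 members, while 2223 of all genes were then called, against 1013 with them.

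**Figure D5:**
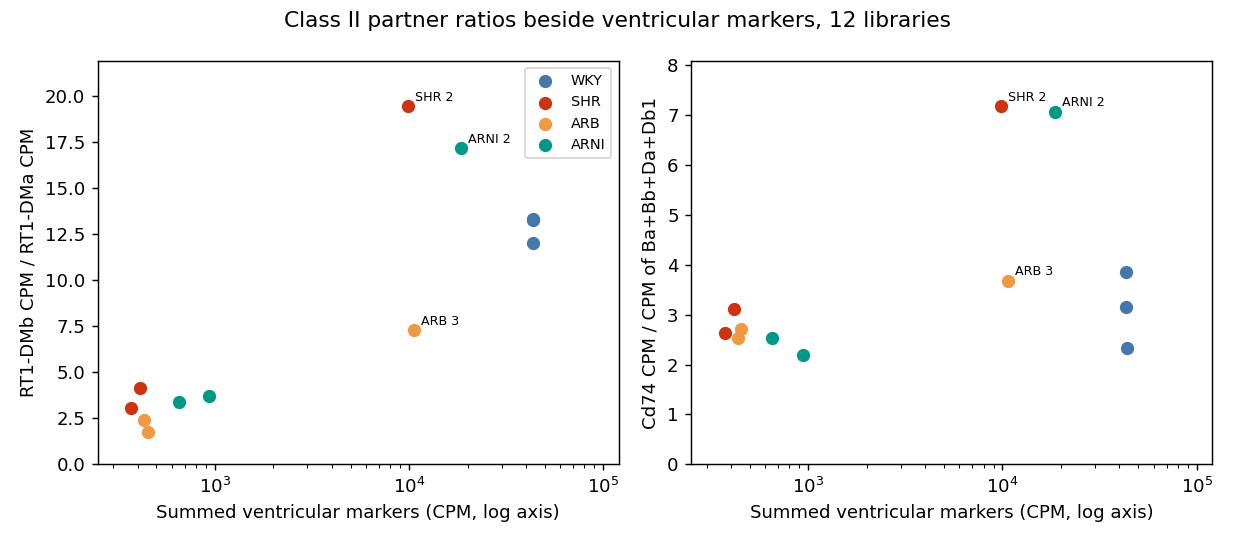
CPM of RT1-DMb per CPM of RT1-DMa (left vertical axis) and of Cd74 per summed CPM of RT1-Ba, RT1-Bb, RT1-Da and RT1-Db1 (right vertical axis) in each of the 12 libraries, against the summed CPM of 5 ventricular markers (horizontal log axes), colored by group. On the left the 6 libraries with few ventricular markers lie between 1.77 and 4.17 and the other 6 between 7.30 and 19.5, and on the right SHR 2 and ARNI 2 stand apart at 7.19 and 7.08.

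For most class I DEGs, ARNI library 2 lay with the other SHRs. The counts that follow were made for members only. The share over the DEGs among all genes was not computed, so whether the members stand apart is not known. Of the 10 class I DEGs, ARNI library 2 lay within the range of the other 8 libraries of SHRs for 7 and within the WKY range for 0. For the remaining 3 it lay just outside the other SHRs, at 293.6 against at least 298.5 CPM for RT1-A1, 7.68 against at most 7.54 CPM for RT1-T24-1 and 2.90 against at least 3.07 CPM for RT1-CE13. Of the 6 class II DEGs it lay within the range of the other SHRs for 5, and for 1 of these, RT1-Da (30.2 CPM), also within the WKY range. The exception was RT1-DMb (48.7 CPM), between the other SHRs (at most 39.4 CPM) and WKY (at least 50.9 CPM). Cd74 in ARNI library 2 (457.4 CPM) was within the WKY range and above the other SHRs (at most 447.3 CPM).

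Few reads fell on the other class II genes. RT1-Db2, a further beta chain, was at 0.182 to 1.34 CPM in WKY, 0.615 to 1.495 CPM in SHR, 1.53 to 2.58 CPM in ARB and 0.910 to 2.06 CPM in ARNI, and RT1-DOa, the DO alpha chain, at 0.616 to 1.15, 0.788 to 1.49, 0.664 to 2.06 and 0.634 to 1.77 CPM. Both were tested and overlapped between WKY and SHR, with adjusted p-values of 0.755 and 0.717. RT1-DOb, its beta chain, was between 0.190 and 1.22 CPM, and RT1-Ha did not exceed 0.138 CPM in any library.

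Ciita, the switch of class II genes, was at 2.56, 3.91 and 1.96 CPM in WKY, 1.14, 1.26 and 1.22 CPM in SHR, 1.92, 1.38 and 2.30 CPM in ARB and 1.45, 2.201 and 3.87 CPM in ARNI. It was downregulated in SHR (-1.35 ± 0.32, adjusted p = 0.033) without overlap, a call that ended without any WKY library or without SHR library 1 or 3, and ARB library 3, ARNI library 2 and ARNI library 3 lay within the WKY range. A single fit of 12 libraries did not call it either. Nlrc5, the switch of class I genes, was at 17.9, 14.3 and 14.9 CPM in WKY and 7.86 to 15.7 CPM in the 9 libraries of SHRs. Its log2 fold change was -0.47 ± 0.16 in SHR (adjusted p = 0.0832) and -0.72 ± 0.12 over the 9 libraries (adjusted p = 0.00633), short of the threshold on fold change.

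Markers of the cells that carry class II did not fall and rise as class II did in every library. The sum of 10 macrophage markers was 279.4 to 359.8 CPM in WKY, 143.9 to 395.1 CPM in SHR, 199.8 to 610.8 CPM in ARB and 97.4 to 333.8 CPM in ARNI. SHR library 3 had more macrophage markers (395.1 CPM) than any WKY library, and its summed RT1-B and RT1-D chains stood at 49.5 CPM, against 106.8 to 204.0 CPM in WKY. The markers in that list did not go 1 way: in SHR library 3 Cd68 (19.0 CPM), Csf1r (48.4 CPM), Aif1 (5.49 CPM), C1qa (52.9 CPM), C1qb (58.3 CPM) and C1qc (66.6 CPM) were above every WKY library, whereas Cd163 (22.0 CPM), Mrc1 (17.7 CPM) and Lyz2 (98.7 CPM) were below every WKY library and Adgre1 (5.96 CPM) was within their range. The 8 dendritic cell markers summed to 53.7 to 60.4 CPM in WKY and 35.0 to 52.6 CPM in SHR, without overlap, and 29.7 to 47.8 CPM in the treated groups. They did not go 1 way either. Itgax and Zbtb46 were lower in SHR than in WKY without overlap. Ccr7 did not overlap either (0.170 to 0.348 CPM in WKY, at most 0.135 CPM in SHR). However, it was under the level of 3 reads in all of these libraries but WKY library 2. Flt3 was higher without overlap (1.79 to 3.48 CPM in WKY, 6.07 to 11.4 CPM in SHR), and Xcr1, Clec9a, Batf3 and Clec10a overlapped. Ptprc, Coro1a and Laptm5 of all leukocytes summed to 34.5 to 48.6 CPM in WKY, 18.9 to 42.3 CPM in SHR, 30.9 to 53.1 CPM in ARB and 17.8 to 38.3 CPM in ARNI. Ptprc alone, which encodes the leukocyte common antigen CD45, was at 12.5 to 16.6 CPM in WKY and 3.23 to 9.15 CPM in the 9 libraries of SHRs, without overlap, whereas Coro1a and Laptm5 overlapped. The 5 B cell markers stayed between 0.134 and 1.12 CPM in all libraries, with Pax5 at 0 in 11 of 12. No marker of these lists was at 0 in all libraries. The part of these cells in the class II differences was not tested.

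None of the genes that supply class I with peptides was a DEG. B2m was at 1016, 1054 and 1098 CPM in WKY, 1011, 893.0 and 1162 CPM in SHR, 998.9, 1040 and 1276 CPM in ARB and 891.6, 845.3 and 856.7 CPM in ARNI, and its difference between SHR and WKY (-0.19 ± 0.13, adjusted p = 0.316) did not pass the test. Psmb8, an immunoproteasome subunit, was at 13.1, 11.3 and 10.9 CPM in WKY and 16.5 to 29.8 CPM in the 9 libraries of SHRs. No library overlapped, and its log2 fold change of 0.79 ± 0.12 in SHR (adjusted p = 0.0119) stayed under the threshold on fold change. The other immunoproteasome subunits Psmb9 (12.2 to 13.4 CPM in WKY, 13.6 to 17.1 CPM in SHR) and Psmb10 (12.0 to 14.7 and 10.9 to 13.2 CPM) had adjusted p-values of 0.656 and 0.169. The transporter genes Tap1 (24.1 to 31.4 and 17.0 to 31.7 CPM) and Tap2 (27.5 to 33.6 and 24.1 to 34.5 CPM) did not pass in SHR, and over the 9 libraries their log2 fold changes were -0.58 ± 0.16 (adjusted p = 0.0337) and -0.43 ± 0.09 (adjusted p = 0.0151). Tapbp was at 26.5 to 32.6 CPM in WKY and 31.4 to 41.1 CPM in SHR (0.20 ± 0.11, adjusted p = 0.222).

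No member was a DEG between treated and saline-treated SHRs. In ARB against SHR, in ARNI against SHR and in ARNI against ARB, 0 of 38, 0 of 37 and 0 of 37 members and 0.0% of all genes were called by edgeR, and DESeq2 called 0 members and 3, 7 and 18 of all genes. At an unadjusted p under 0.05 there were 6, 1 and 1 members, beside 225, 227 and 539 of all genes tested. The 6 in ARB against SHR were class II genes (RT1-DMa, RT1-Db1, RT1-Da, RT1-Ba, RT1-Db2 and RT1-Bb), with log2 fold changes from 0.79 ± 0.29 (RT1-Ba) to 1.05 ± 0.31 (RT1-DMa) and an adjusted p of 0.9999 each. All 8 class II genes tested had a log2 fold change above 0 in ARB (median 0.92) and in ARNI (median 0.69), and both comparisons share the 3 saline-treated SHR libraries. The medians over all genes were -0.0064 and 0.0036, respectively. Of the class I members tested, 10 were above and 10 below 0 in ARB, and all 19 were below 0 in ARNI (median -0.21). Ciita was the member under 0.05 in ARNI against SHR (1.12 ± 0.41, adjusted p = 0.999), and RT1-S3 that in ARNI against ARB (-0.61 ± 0.19, adjusted p = 0.993).

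The spread within the treated groups was wide. The sum of RT1-Ba, RT1-Bb, RT1-Da and RT1-Db1 was 50.2, 39.9 and 49.5 CPM in SHR, 56.3, 72.5 and 121.6 CPM in ARB and 42.5, 64.7 and 117.4 CPM in ARNI. ARB library 3 and ARNI library 3 were the highest, ARB libraries were all above the SHR libraries, and ARNI overlapped with SHR. Markers of other cells also varied among these libraries, and not always with class II. The macrophage sums were 199.8, 364.1 and 610.8 CPM in ARB and 97.4, 167.8 and 333.8 CPM in ARNI, against 183.1, 143.9 and 395.1 CPM in SHR. The sums of 4 adipose markers were 86.4, 665.7 and 354.1 CPM in ARB and 83.4, 341.1 and 573.5 CPM in ARNI, against 103.9, 252.1 and 111.7 CPM in SHR. The highest was that of ARB library 2, whose class II chains (72.5 CPM) were below those of ARB library 3 and ARNI library 3. Outside ARB library 2 and ARNI library 3, nearly all of the sum was Fabp4 (353.2 CPM in ARB library 3). WKY libraries also held Fabp4 (268.0 to 358.5 CPM). Adipoq was at 192.1 CPM in ARB library 2, 61.7 CPM in ARNI library 3 and at most 0.713 CPM in the other libraries of SHRs. The part of all these markers in the class II levels was not tested.

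Other genes of the pathway were read from 2 lists put together by function. Of 29 further presentation genes (chaperones, cathepsins, class I-like molecules, regulatory factors and costimulators), 28 were tested in SHR against WKY, 2 were upregulated and 0 downregulated, with a median log2 fold change of 0.04, beside the 8.89% of all genes that were DEGs. The upregulated genes were Mr1, which presents vitamin B metabolites to T cells (0.511 to 1.13 CPM in WKY, 3.39 to 8.06 CPM in SHR, 2.84 ± 0.42, adjusted p = 0.0101), and Hfe, a class I-like regulator of iron uptake (1.39 to 2.13 and 3.00 to 7.38 CPM, 1.49 ± 0.37, adjusted p = 0.0371). In ARNI library 2 Mr1 was at 0.550 CPM, within the WKY range. Rfx5, a subunit of the factor that binds class II promoters, was at 22.1 to 24.3 CPM in WKY and 31.9 to 44.3 CPM in SHR (0.64 ± 0.12, adjusted p = 0.0185), under the threshold on fold change and opposite in sign to the class II DEGs, and at 21.5 CPM in ARNI library 2.

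Of 40 interferon response genes, 39 were tested, and 1 was upregulated and 1 downregulated in SHR, with a median log2 fold change of -0.20, beside the same 8.89% of all genes. Ifit1 was at 0.0946 to 0.194 CPM in WKY and at 12.2 to 34.3 CPM in the 9 libraries of SHRs, so its fitted fold change of 7.35 ± 0.48 on the log2 scale (adjusted p = 0.00149) rests on few WKY reads. Rsad2 was at 11.7 to 17.0 CPM in WKY and 4.65 to 7.76 CPM in SHR (-1.44 ± 0.23, adjusted p = 0.0129). Over the 9 libraries 1 of 39 genes (Ifit1) was upregulated and 4 (Mx1, Ifit2, Gbp4 and Rsad2) were downregulated. Of all genes, 4.23% were upregulated and 2.77% downregulated in that comparison. Neither list held a DEG in the 3 comparisons between the groups of SHRs.

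Within the 9 libraries of SHRs, the genes outside the members whose level was most like the class I sum were Ccdc152, Tnfsf12, Rcc1, Akr1c19, Tlr2, Poc1b, Pla1a and Dcn (Pearson r of log2(CPM + 1) from 0.923 to 0.968 among 14411 genes). Those most like the class II sum were Slc10a6, Ccdc71l, Clnk, Rwdd1, Gfer, Cox6a1, Fam117b and Tgfbi (r from 0.927 to 0.948). These are the highest of many correlations over the same 9 libraries, which also differ in the marker sums above, and are given as a description.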

How the data were processed

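RNA from the left atrium of 12 rats had been sequenced on a BGISEQ platform. The authors filtered the reads with SOAPnuke and aligned them with HISAT2 and Bowtie2 (2.0.4 and 2.2.5 per the submitters' processing notes, which name build Rnor_6.0), and deposited RSEM expected counts, which are not normalized and divide a read that fits several genes among them. Columns deposited by the authors for their own comparison of SHRs with WKY rats (log2 fold change, p-value) were not used. CPM was computed from the library totals. For tests, counts were rounded and all genes were fitted with edgeR 4.0.16 in R 4.3.3 (filterByExpr, TMM, quasi-likelihood test on the 6 libraries of a pair, or on 12 for the 9 libraries of SHRs against WKY, where the means of SHR, ARB and ARNI were averaged), with Benjamini-Hochberg adjustment over all genes tested. Standard errors were derived from the F statistic. The fit of SHR against WKY was tested on simulated counts with the same spread for all genes and libraries. The real SHR libraries differed more among themselves than the WKY libraries did. The other comparisons were not simulated. The thresholds were the study's. DESeq2 1.42.0, other scalings, no filter, a joint fit, a replicate block and leaving out each library were alternatives.

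Members and lists were chosen with earlier results of these data known. Named in full were the class II and non-RT1 members, the 8 class I genes with the highest mean CPM and every DEG, and the rest by range. Each library is 1 rat, and n is 3 rats per group. A floor of 3 reads covers counting error only. Library strandedness was not given in the sources used here, so overlapping genes are uncertain. Same-numbered libraries deviated together in every pair only between SHR and ARNI (r of 0.593, 0.589 and 0.239 over genes), where the block called 0 members, as without it. Gene lengths and proteins were not used here, so levels were not compared between genes.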

Additional observations from a re-analysis of the deposited data

How the results depend on the processing

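In SHR against WKY, DESeq2 called 19 members, RLE scaling 18, no scaling 17, no filter 19, adjusted p alone 22, and 1 fit of 12 libraries 13, beside 1598, 1247, 1348, 1239, 2837 and 579 of all genes (1226 as reported). Leaving out 1 library gave 9 to 18: 10, 9 and 10 without WKY library 1, 2 and 3, respectively, and 13, 18 and 14 without SHR library 1, 2 and 3, where all genes called ranged from 348 to 2205. RT1-A1, RT1-CE2, RT1-CE10, RT1-N2, RT1-CE13, RT1-T24-1, RT1-Ba and RT1-Bb were called throughout these, while the other 10 were lost at least once. The cause was not tested. With 9 libraries of SHRs, the count was 11 to 15 on leaving out 1, and that of all genes 253 to 1692 (1013 as reported). The replicate block, whose numbers did not pair SHR with WKY libraries, gave 14 in each of both comparisons with WKY (681 and 1081 of all genes) and 0 in the 3 among groups of SHRs. With SHR it left out Ciita, RT1-CE4, RT1-DMa and RT1-Da, and with all SHRs it added RT1-DMb.

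The class II sum in SHR over WKY was 0.306, with 0.279 on TMM library sizes, 0.257 without RT1-Da and 0.271 to 0.355 on leaving out 1 library. Without RT1-A1 the class I sum in SHR over WKY was 0.699 and over all SHRs 0.654. Log2 fold changes near 0 turned sign. In SHR against WKY, RT1-S3 was -0.00787 under the replicate block and -0.13 to 0.37 on leaving out 1 library, as were RT1-M3-1 -0.40 to 0.0142, RT1-Db2 -0.18 to 0.80 and RT1-DOa -0.0537 to 0.46. Over the 9 libraries, RT1-S3 was -0.26 to 0.0643, RT1-M3-1 -0.22 to 0.0300 (0.0141 without SHR 2, ARB 3 and ARNI 2, chosen after seeing the data) and Psmb9 -0.0688 to 0.0247 on leaving out 1, and Psmb9 was 0.0741 with no scaling. Depth limits RT1 genes with few reads.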
